A study of Homo sapiens with 22 samples.

Results

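The PRRX1 line is a population of WT RPTEC carrying a lentiviral PRRX1 vector, and its 2 RNA-seq libraries were compared with the 6 libraries of the other transduced WT lines. Members were chosen by their labels, as the libraries of WT cells that had received a lentiviral vector for PRRX1, eGFP, OCT2 or SOX2. These are 8 of the 22 libraries of the series, with 2 replicates for each of the 4 lines. RPTEC are human renal proximal tubule epithelial cells immortalized with hTERT, and all 8 libraries came from cells that were WT for SETD2 and grown in regular medium with 10% serum. The eGFP vector served the study as its control vector, and OCT2 is the protein of the POU2F2 gene. Cells were selected with puromycin after transduction and used as bulk selected populations, so that each line is 1 transduction, and its duplicates do not sample the variation between transductions. The labels do not say that replicates came from separate cultures, so the p-values below measure only the spread between duplicate libraries, which may be technical. That spread was taken from the duplicates of all 11 groups of the series. Untransduced WT, WT given 10 ng/ml TGF-β for 72 h, and the SETD2 knockout clones KO1 and KO2 were kept in 2% serum. The remaining groups were rescue cells, which are SETD2 knockout cells given a SETD2 vector. Of these, the KO2 rescue group was in 2% serum, and the clones Rescue1 and Rescue2 were in 10% serum. Beyond that spread, the WT, TGF-β and KO groups are used below for a separate comparison of KO or TGF-β with WT. Levels of a few genes outside the transduced lines are also set beside the transduced lines, where serum can differ.

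PRRX1 is a paired-type homeodomain transcription factor of the mesenchyme that forms limbs and the face, and it binds AT-rich sites through its homeodomain. In epithelial tumors it is known as an inducer of epithelial-to-mesenchymal transition (EMT), in which cells give up junctions and keratins and take on mesenchymal matrix and cytoskeletal genes. The study introduced PRRX1, OCT2 and SOX2 singly into WT cells to ask whether each acts downstream of SETD2 loss. The comparison with the 3 other lines asks which transcripts differ with the PRRX1 vector when a vector, selection and serum are shared.

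Values are normalized counts, computed back from the deposited log2 values. The 8 libraries held 12440397 to 13042039 normalized counts from about 11000000 to 15600000 reads, with 15077 to 15716 genes above 0. Every general epithelial marker was above 0 in at least 1 of the 8 libraries, and the summed level of these 9 genes was 27100 to 28900 in the PRRX1 line and 26400 to 31100 in the other lines. The endothelial list summed to 6.65 to 9.74 in the PRRX1 line and 2.66 to 28.1 in the others, and the immune list to 105 to 125 and 86.4 to 151, with CLDN5, EMCN and CD3E at 0 in all 8 libraries. The fibroblast list summed to 3720 to 3760 against 3680 to 6050, the podocyte list to 491 to 545 against 480 to 560, and the distal nephron and collecting duct list to 199 to 242 against 165 to 313. The proximal tubule list of 10 genes was incomplete, since LRP2, which encodes megalin, was at 0 in all 8 libraries. Its sum was 849 to 1310 in the PRRX1 line and 1340 to 1700 in the others, so the line was lower without overlap. GAPDH, a gene every cell uses, varied widely in these files, from 247 to 593 in the PRRX1 line and 334 to 1700 in the others, and is not used here as a reference. In the PRRX1 line 81 of 14585 genes tested (0.555%) stood at 0 in one duplicate and at 50 or more in the other, against 49 to 74 in the other lines. CDH2, the N-cadherin gene, was 1 of them, at 0 and 275.

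In the fit of all 22 libraries, PRRX1 itself was the one transcript that set the line apart. The gene lies on chromosome 1 at positions 170662728 to 170739421 of GRCh38, plus strand. It reached 395 and 404 normalized counts in the PRRX1 line, a mean of 399 ± 6.57 (SD, n = 2). It was at 0 in both eGFP and both SOX2 libraries, and at 3.20 and 0 in the OCT2 libraries. The PRRX1 libraries thus lay far above the other 6, at least 133-fold above the eGFP and SOX2 lines when a level of 0 is set to a floor of 3 counts per library. The log2 difference from the mean of the 3 lines was 8.30 (SE 0.60, 95% interval 7.01 to 9.59, adjusted p 1.7e-05 by limma). On the same scale PRRX1 was at 37.5 and 8.98 in the KO1 clone (23.3 ± 20.2) and at 34.8 and 28.4 in KO2 (31.6 ± 4.51), where the endogenous gene is the only source. The level in the transduced line was therefore 17.2 times that of KO1 and 12.6 times that of KO2, whose cells were in 2% serum. Untransduced WT cells, TGF-β-treated WT cells and both rescue clones grown in 10% serum were at 0.

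**Figure D1:**
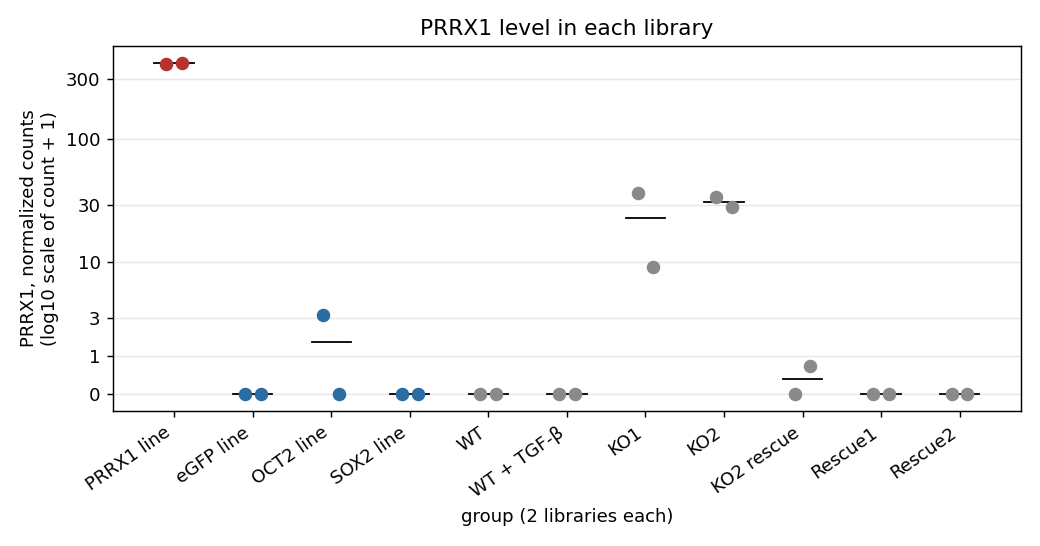
PRRX1 level in each of the 22 libraries, as normalized counts on a log10 scale of the count + 1, with a line at the mean of each group of 2. The PRRX1 line (red) stands at 395 and 404, the other transduced lines (blue) at 0 to 3.20, and among the remaining groups (grey) only KO1, KO2 and 1 KO2 rescue library are above 0.

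The counts were made per gene, and a vector transcript with the PRRX1 coding sequence and a transcript of the endogenous gene cannot be told apart in them. The study's own primers for PRRX1 are shown because they mark the stretch that its RT-qPCR read (5′ to 3′).
PRRX1 forward: ttatctctcctgggggacag
PRRX1 reverse: cttcagtctcaggttggcaa
The forward primer lies at chr1:170726369-170726388, in exon 3 and within the coding sequence of the transcript ENST00000239461.11. The reverse primer is the complement of chr1:170736119-170736138, in exon 4 of that transcript and also coding there. In ENST00000367760.7 the forward primer is coding but the reverse primer is not. Of 8 annotated PRRX1 transcripts, 4 contain both primer sites, with a product of 124 bases or, where an alternative exon is included, 196 bases. Which isoform the vector carries is not given in the sources used here, so whether these primers also read the vector transcript is not known.

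The second factor in this group of lines could be checked the same way. POU2F2, which encodes OCT2, was at 1250 and 1120 in the OCT2 line, 175 and 230 in the PRRX1 line, 279 and 357 in the eGFP line and 232 and 395 in the SOX2 line. Both PRRX1 libraries were the lowest of the 8, and the difference from the mean of the 3 lines was -1.27 (log2, adjusted p 0.888), a mean that includes the OCT2 vector. Against the eGFP line alone it was -0.65. SOX2 was not analysed here.

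Across all genes, PRRX1 was the only transcript called, with a call defined as an adjusted p under 0.05 and a log2 change over 1. It was 1 of 14585 genes tested (0.00686%) against the mean of the eGFP, OCT2 and SOX2 lines, with 1 higher and 0 lower by limma. The count was also 1 with the limit on the size of change removed. At an unadjusted p under 0.05, 243 genes (1.67%) were higher and 437 (3%) lower, and with a log2 change over 1 as well, 104 (0.713%) were higher and 178 (1.22%) lower. Both PRRX1 libraries lay above all 6 others in 508 genes (3.48%) and below all 6 in 552 (3.78%). For scale, the same fit called 3653 genes (25%) in KO1 against WT, 2378 (16.3%) in KO2 against WT and 1143 (7.84%) with TGF-β against WT. The single call depended on the fit in some settings. Without PRRX1 replicate 1 the count was 9 and without replicate 2 it was 5, and it was 2 without eGFP replicate 1, SOX2 replicate 1 or SOX2 replicate 2. PRRX1 was among the genes called in each of these. A fit of only the 8 transduced libraries called 6 genes, and with its low-count filter set on those 8 libraries it called 0, at an adjusted p of 0.0854 for PRRX1.

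**Figure D2:**
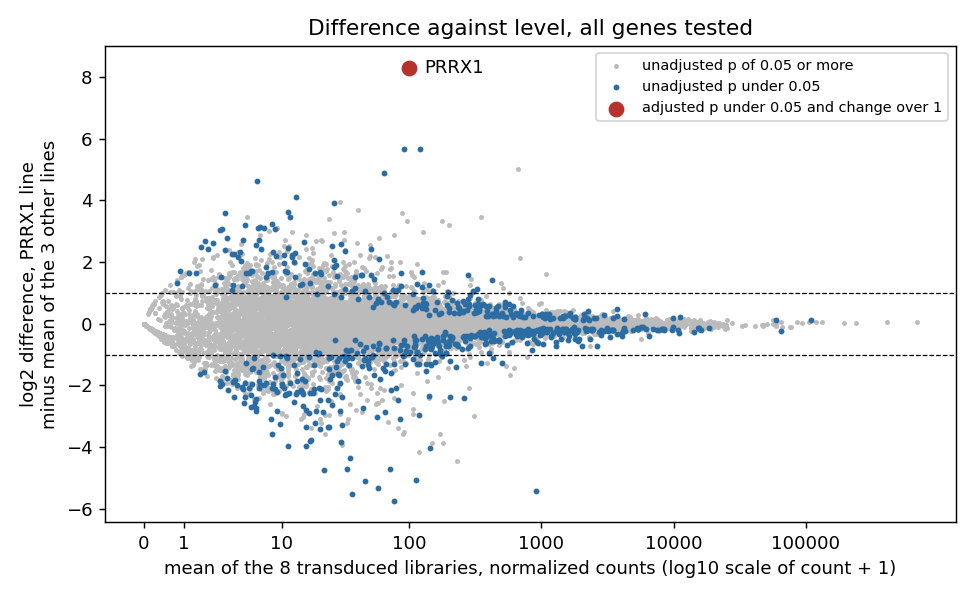
Log2 difference between the PRRX1 line and the mean of the 3 other lines for each of the 14585 genes tested, against the mean normalized count of the 8 libraries on a log10 scale. PRRX1 (red) stands alone at 8.30, and the spread of the other genes narrows from left to right, with 1 gene of at least 1000 normalized counts beyond the dashed lines at -1 and 1.

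How small a change could have been seen depended on the level of the gene. For the 2269 genes with a mean of at least 1000 normalized counts the median SE was 0.0921, and the 95% interval of the difference lay between -1 and 1 for 2233 of them (98.4%). At 100 to 1000 normalized counts the median SE was 0.199 and the interval lay within these bounds for 4690 of 5881 genes (79.7%). At 10 to 100 the SE rose to 0.577, with 705 of 4221 genes (16.7%) so bounded. Over all genes tested the share was 7642 of 14585 (52.4%). A change of a low transcript such as a mesenchymal transcription factor would therefore often not have been detectable here.

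The distance between libraries was compared within and between the lines. It was taken as the SD, over genes, of the difference in log2 level between a pair of libraries. For genes of at least 1000 normalized counts it was 0.203 between the PRRX1 duplicates and 0.159 to 0.27 between the duplicates of the other lines. From a PRRX1 library to a library of another line it was 0.169 to 0.316, and between libraries of the other lines 0.172 to 0.319. Over all genes tested it was 1.13 between the PRRX1 duplicates and 1 to 1.12 between other duplicates. From PRRX1 replicate 1 to the other lines it was 1.01 to 1.14 and from replicate 2 it was 1.12 to 1.18, with 1 to 1.19 between libraries of the other lines (median 1.06). PRRX1 replicate 2 was thus toward the far end of the range when low genes were included. In these well-measured genes the direction leaned to lower values, with both PRRX1 libraries below all 6 others in 131 genes (5.77%) and above all 6 in 75 (3.31%). PRRX1 replicate 2 and eGFP replicate 1 were the shallowest of the 8 libraries at about 11000000 reads, and the part of depth in this lean was not tested.

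Some genes outside PRRX1 came closest to a call, and they are named here after their values were seen. RNPEP, which encodes the aminopeptidase B, stood at 44.5 and 63.5 in the PRRX1 line and at 112 to 168 in the other 6 libraries, a difference of -1.31 (SE 0.21, adjusted p 0.138). It was called with no filter on low values (adjusted p 0.039) and without the variance trend (0.0443). TRIM68, a RING-type E3 ubiquitin ligase gene, was at 0 and 3.02 against 10.8 to 31.2, and it was called without PRRX1 replicate 2 (adjusted p 0.0364). Both genes were lower in each PRRX1 library than in each of the others. BDKRB2, the gene of the bradykinin B2 receptor, was at 1651 and 1305 against 1974 to 2228, a difference of -0.51 with a 95% interval of -0.72 to -0.30 (adjusted p 0.365). NACC1, a gene of a BTB-domain transcriptional regulator, was at 0 in both PRRX1 libraries and at 17.7 to 78.7 in the others. Among the settings run it was called only in 2 fits of the 8 transduced libraries, at an adjusted p of 0.0462 or, with a robust variance estimate, 0.0338, and had an adjusted p of 0.850 in the fit of all 22. The first of these 2 fits also called ENSG00000236251 higher, at 18.5 and 30.6 in the PRRX1 line and 0 in the other 6 libraries (adjusted p 0.042 by limma). It called NFATC2 lower, at 0 in both PRRX1 libraries against 7.95 to 14.9. ENSG00000276541 was likewise lower, at 0 in both against 10.1 to 17.2.

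Against each line singly, the PRRX1 line differed in few genes. Every gene called apart from PRRX1 was also called for that other line against the mean of the remaining lines, the PRRX1 line among them. Against eGFP, 6 genes (0.0411%) were called, 5 higher (0.0343%) and 1 lower (0.00686%). P3H3, which encodes a collagen prolyl 3-hydroxylase, was at 425 and 383 in the PRRX1 line and at 46.7 and 23.5 in the eGFP line, a log2 difference of 3.57 (SE 0.41). The OCT2 libraries were at 485 and 513 and the SOX2 libraries at 380 and 359, so that the eGFP line alone was low. THBS2, the gene of the matrix glycoprotein thrombospondin-2, was at 54.8 and 58.5 in the PRRX1 line against 20.6 and 19.6 in the eGFP line (1.45). It was at 44.7 and 62.7 in the OCT2 line and 31.9 and 28.6 in the SOX2 line. THBS2 in the PRRX1 line thus overlapped the OCT2 line and stood above the SOX2 line.

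SPSB1, a substrate adaptor of a ubiquitin ligase, was at 17.1 and 51.1 in the PRRX1 line and at 0 in both eGFP libraries. The anion transporter gene SLC26A9 was at 15.7 and 28.8 and also at 0 in both eGFP libraries. Both were above 0 in the OCT2 line, SPSB1 at 46.9 and 83.2 and SLC26A9 at 25.6 and 14.5. The 1 lower gene, ENSG00000279389, was at 37.9 and 31.9 in the eGFP line and at 0 in the other 6 libraries. All 5 of these genes other than PRRX1 were also called in eGFP against the mean of the 3 other lines, which called 8 genes (0.0549%). That comparison shares the eGFP and PRRX1 libraries, so the overlap is not independent, and it was added after the data were seen. The count against eGFP rose to 41 without eGFP replicate 2.

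Against OCT2, PRRX1 was the only gene called (0.00686%), and the count was 7 without PRRX1 replicate 1 and 2 without either SOX2 library. Against SOX2, 3 genes (0.0206%) were called, PRRX1 and CDH3 higher (0.0137%) and COL27A1 lower (0.00686%). CDH3, the P-cadherin gene, was at 24.5 and 18.5 in the PRRX1 line, 15.8 and 11.1 in the eGFP line, 7.63 and 5.31 in the OCT2 line and 0 in both SOX2 libraries. The PRRX1 libraries were the highest of the 8, and the difference from the mean of the 3 lines was 2.24 (95% interval 1.14 to 3.34, adjusted p 0.579). COL27A1, a fibrillar collagen gene, was at 262 and 327 in the PRRX1 line, 256 to 321 in the eGFP and OCT2 lines and 1049 and 1075 in the SOX2 line. The call for COL27A1 thus went with a high SOX2 line. CDH3 and COL27A1 were both called in SOX2 against the mean of the 3 other lines, which called 3 genes (0.0206%). That comparison shares the SOX2 and PRRX1 libraries and was also added after the data were seen. The count against SOX2 was 6 without either SOX2 library, 5 without PRRX1 replicate 1, and 1 without either eGFP or either OCT2 library.

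**Figure D3:**
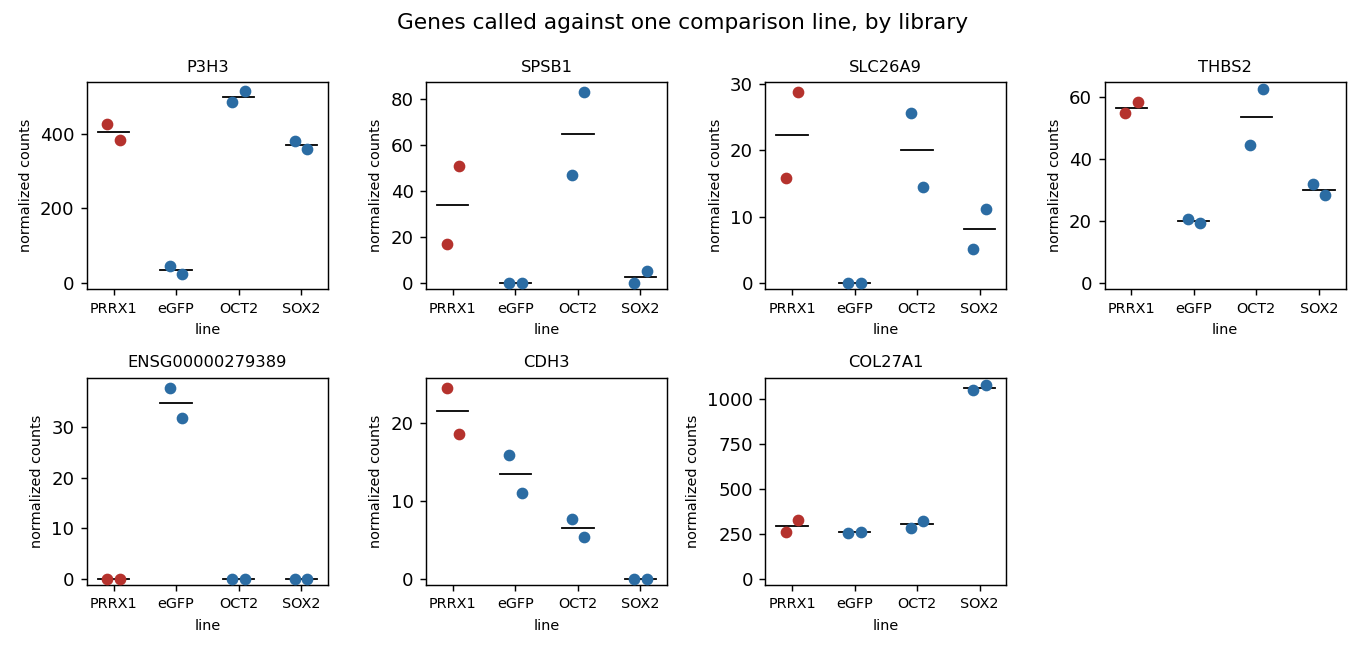
Normalized counts of the 7 genes other than PRRX1 that were called against 1 comparison line, in each library of the PRRX1 (red), eGFP, OCT2 and SOX2 lines (blue), with a line at the mean of the 2 libraries. P3H3, SPSB1, SLC26A9 and THBS2 are lowest or joint lowest in the eGFP line, and ENSG00000279389 is above 0 only there. COL27A1 is highest in the SOX2 line, and CDH3 is at 0 there and highest in the PRRX1 line.

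The genes of EMT were described from lists of known members. None of the 27 epithelial junction and keratin genes tested was called. At an unadjusted p under 0.05, 0 were higher and 2 lower (7.41%, beside 3% of all genes). Their median log2 difference was -0.036 in a range of -0.99 to 1.72, beside a median of 0 over all genes tested, and the 95% interval lay within 1 of 0 for 15 (55.6%). EPCAM, an epithelial adhesion gene, was at 956 and 967 in the PRRX1 line and 903 to 1037 in the others, so the groups overlapped. Keratin KRT8 was at 10360 and 9562 against 9055 to 11290, and KRT19 at 10160 and 8928 against 8733 to 10820, both within the range of the other lines. The 95% intervals of these differences were -0.24 to 0.17 for EPCAM, -0.18 to 0.06 for KRT8 and -0.15 to 0.15 for KRT19. CDH1, the E-cadherin gene whose loss is a common mark of EMT, was low and variable. It was at 58 and 31.9 in the PRRX1 line and 0 to 57.5 in the others, with an interval of -1.09 to 4.53 that leaves its change unknown. The member with the smallest unadjusted p was SPINT1, a membrane serine protease inhibitor gene, at 1430 and 1369 against 1460 to 1670 (adjusted p 0.862). EPCAM, KRT8, KRT19 and CDH1, and the mesenchymal examples that follow other than COL6A3 and THY1, were named for their roles and not by the rule for named genes.

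Of 28 mesenchymal genes tested, 0 were called by limma. At an unadjusted p under 0.05, 1 was higher and 1 lower (3.57% each, beside 1.67% and 3% of all genes). Their median was 0.057 in a range of -2.27 to 1.77, and the interval lay within 1 of 0 for 11 (39.3%), so that many of these genes were poorly bounded. Both PRRX1 libraries lay above all 6 others in 1 gene (3.57%) and below all 6 in 3 (10.7%, beside 3.78% of all genes). VIM, which encodes vimentin, stood at 86870 and 89280 in the PRRX1 line and 78520 to 89460 in the others, with an interval of -0.07 to 0.18. FN1, which encodes fibronectin, was the most abundant transcript at 720700 and 696900 in the PRRX1 line and spanned 605400 to 752900 in the others. Its interval was -0.58 to 0.71, and the fit takes the spread of a gene from the duplicates of all 11 groups. ACTA2, the smooth muscle actin gene, was at 257 and 235 against 217 to 312. The vimentin, fibronectin and actin levels of the PRRX1 line all lay inside the range of the other lines. COL6A3, a collagen VI chain, was above all 6 libraries at 141 and 142 against 65.9 to 133, a difference of 0.51 (adjusted p 1). THY1, a surface glycoprotein gene of fibroblasts that is named after its values were seen, was below all 6 at 1506 and 1222 against 1725 to 2936, a difference of -0.72 (adjusted p 1). CDH2 was at 0 and 275 in the PRRX1 line, 0 and 239 in the OCT2 line, 0 and 54.6 in the SOX2 line and 0 in both eGFP libraries, so that duplicates differed more than lines.

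Of 21 EMT and epithelial transcription factors tested, 0 were called by limma and 0 had an unadjusted p under 0.05. Their median difference was -0.067 in a range of -2.56 to 0.23, with 6 above 0, and the 95% interval lay within 1 of 0 for 14 (66.7%). Both PRRX1 libraries lay below all 6 others in 2 of them (9.52%, beside 3.78% of all genes) and above all 6 in 0. These 2, named after their values were seen, were PAX8, a renal lineage factor, at 5654 and 5512 against 5715 to 6286, and KLF4, an epithelial zinc finger factor, at 262 and 255 against 329 to 411. ZEB1, a repressor of epithelial genes, was at 1348 and 1277 against 1236 to 1433, with an interval of -0.13 to 0.18. ZEB2, its relative, was at 1782 and 1863 against 1562 to 1886, with an interval of -0.08 to 0.34. SNAI2, which encodes Slug, was at 337 and 440 against 398 to 496, with an interval of -0.88 to 0.51. ZEB1, ZEB2 and SNAI2 all overlapped the range of the other lines. Limb and craniofacial mesenchyme factors, the developmental companions of PRRX1, gave 0 calls among 22 tested, with only 4 intervals within 1 of 0. MEOX1, a mesoderm homeobox gene, was at 26.8 and 9.04 in the PRRX1 line and at 0 in 5 of the other 6 libraries, but 30.9 in eGFP replicate 2, for a difference of 3.23 (adjusted p 0.850). Its level was thus shared with 1 library of another line.

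Matrix and protease genes gave no call either. Among 48 collagens and matrix glycoproteins the median was -0.044, and THBS2 had the smallest p (adjusted 0.564). At an unadjusted p under 0.05, 2 were higher (4.17%, beside 1.67% of all genes) and 0 lower. Among 26 matrix proteases and inhibitors the median was -0.071, and 2 were lower at that p (7.69%, beside 3% of all genes). They were led by CTSB, the cathepsin B gene, at 14740 and 13750 against 14790 to 16890. In 20 glycosaminoglycan and proteoglycan genes the median was -0.168. SDC1, the syndecan-1 proteoglycan gene, was at 309 and 158 in the PRRX1 line and 326 to 673 in the others, a difference of -1.11 (95% interval -1.88 to -0.35, adjusted p 0.850). Both PRRX1 libraries were below all 6 others in SDC1, with a wide gap between the duplicates. Integrins and cadherins gave 0 calls in 32 genes with a median of -0.028, and CDH3, described above, had the smallest p. Of 33 semaphorin, ephrin and netrin guidance genes, 3 were lower (9.09%, beside 3% of all genes) and 0 higher at an unadjusted p under 0.05. Among these 3 was the semaphorin co-receptor gene PLXNA1, at 1543 and 1060 against 1415 to 2162.

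None of the members of the signalling lists was called, and their medians ran from -0.317 to -0.019. The 28 TGF-β response genes had a median of -0.156, and BHLHE40, a helix-loop-helix repressor, was at 15340 and 13610 against 15790 to 17690 (difference -0.20, adjusted p 0.888). At an unadjusted p under 0.05, 2 of the 28 were lower (7.14%, beside 3% of all genes) and 0 higher. Both PRRX1 libraries lay below all 6 others in 4 of them (14.3%, beside 3.78%) and above all 6 in 1 (3.57%, beside 3.48%). Of 22 actin cytoskeleton and YAP-SRF target genes, TEAD4, the DNA-binding partner of YAP, had the lowest difference. It was at 3.75 and 0 in the PRRX1 line and at 8.99 to 108 in the others, a difference of -3.83 (95% interval -5.40 to -2.25, adjusted p 0.365). Both PRRX1 libraries lay below all others in TEAD4, with eGFP replicate 2 the nearest at 8.99. Among 41 growth factors and receptors IGF2R, the mannose 6-phosphate receptor that clears IGF2, was at 9061 and 9986 against 10600 to 12320, a difference of -0.28 (95% interval -0.41 to -0.15, adjusted p 0.564). In that list 3 genes were lower (7.32%, beside 3%) and 0 higher at an unadjusted p under 0.05. Both PRRX1 libraries lay below all 6 others in 4 of the 41 (9.76%, beside 3.78%) and above all 6 in 0. In 29 WNT pathway genes the median was -0.032, and ZNRF3, a ligase that removes WNT receptors, was at 489 and 474 against 546 to 602. Notch and Hedgehog genes had the lowest median of the 24 lists at -0.317, with 0 of 19 past an unadjusted p of 0.05 and 4 intervals within 1 of 0. GLI2, the Hedgehog transcription factor, had the smallest p of that list at a difference of 0.48.

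Inflammatory, stress and growth lists gave 0 calls each by limma, while at an unadjusted p under 0.05 they held 0 to 3 genes in each direction. CSF3, the granulocyte colony-stimulating factor gene, was at 20.5 and 26.8 in the PRRX1 line and 37.5 to 72 in the others (difference -1.19, adjusted p 1). Of 35 cytokines and chemokines 3 were lower (8.57%, beside 3% of all genes) and 0 higher at an unadjusted p under 0.05. Their median was 0.013. The 32 interferon-stimulated genes had the highest median of the 24 lists at 0.11. At an unadjusted p under 0.05, 2 were higher (6.25%, beside 1.67% of all genes) and 0 lower. Both PRRX1 libraries lay above all 6 others in 4 of them (12.5%, beside 3.48%) and below all 6 in 1 (3.12%, beside 3.78%). GDF15, a stress-induced cytokine and p53 target, was at 3785 and 2861 against 4123 to 4518 (difference -0.41, 95% interval -0.64 to -0.18, adjusted p 0.768). DDIT3, the CHOP gene of the unfolded protein response, was at 1562 and 1158 against 1500 to 1863. GDF15 was below all 6 others in both PRRX1 libraries, and DDIT3 only in replicate 2, the shallower one. MCM2, a replication helicase subunit, was at 64.6 and 0 in the PRRX1 line and 47.7 to 80.8 in the others, and its difference of -3.01 became 0.01 without PRRX1 replicate 2. The 29 cell cycle genes had a median of -0.033.

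Sterol synthesis genes (25 tested, median 0.071) and hypoxia and glycolysis genes (27 tested, median 0.006) gave 0 calls by limma. At an unadjusted p under 0.05, 2 sterol genes were higher (8%) and 1 lower (4%), beside 1.67% and 3% of all genes. The hypoxia and glycolysis list held 0 in either direction. PFKFB3, a regulator of glycolysis, was at 1812 and 2546 against 1988 to 3488, so the groups overlapped. The 28 HOX genes had a median of 0.045, with HOXA2 at 0 and 4.96 against 1.65 to 20.3. Of 18 stemness genes, 0 were called by limma, and 2 were higher and 2 lower at an unadjusted p under 0.05 (11.1% each, beside 1.67% and 3% of all genes). Both PRRX1 libraries lay above all 6 others in 1 of them (5.56%) and below all 6 in 4 (22.2%, beside 3.78% of all genes). These 4, named after their values were seen, were SALL1, PROM1, THY1 and KLF4. ENG, the endoglin co-receptor gene, was at 43.6 and 42.6 against 12.8 to 36.1. SALL1, a zinc finger factor of kidney development, was at 3657 and 3067 against 3837 to 4542, a difference of -0.32 (adjusted p 1). Among 21 proximal tubule genes the median was -0.148, and 4 lay below all 6 other libraries (19%, beside 3.78% of all genes). CDH16, the kidney-specific cadherin gene, was at 74.6 and 28.9 in the PRRX1 line and 178 to 345 in the others, a difference of -2.39 (95% interval -4.04 to -0.74, adjusted p 0.850). CDH16 is also a member of the proximal tubule marker list whose sum was lower in the PRRX1 line, and the part of that list in other results was not tested. In bulk RNA, fewer cells with a transcript and less of it per cell cannot be told apart.

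**Figure D4:**
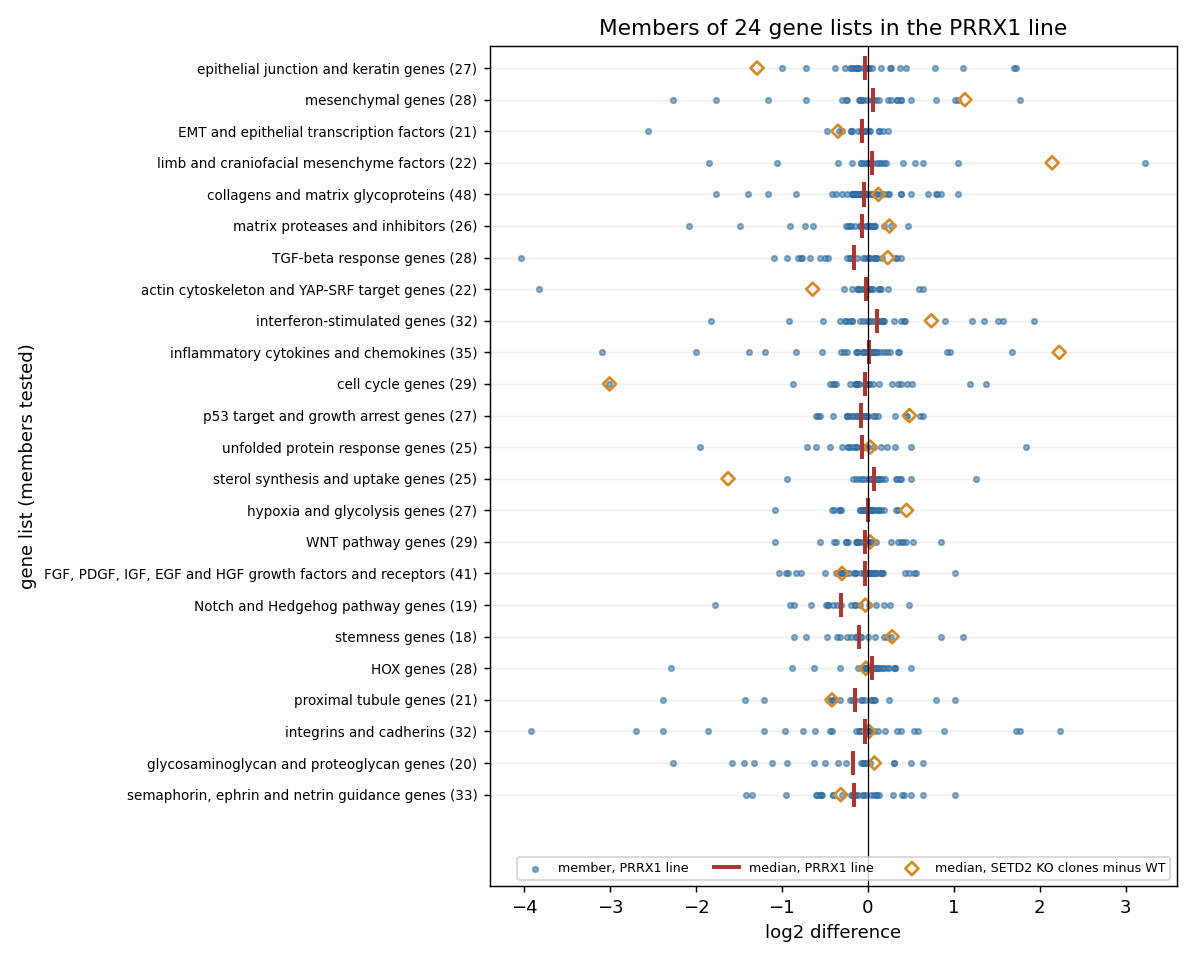
Log2 differences between the PRRX1 line and the mean of the 3 other lines for the tested members of 24 gene lists (blue points), with their medians (red bars) and the median of the same genes in the SETD2 KO clones against WT (orange diamonds). The red medians run from -0.317 to 0.11, while the orange ones run from -3.01 to 2.23.

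The genes that responded to SETD2 loss were then followed in the PRRX1 line. The KO comparison shares no library with the PRRX1 comparison, but its cells were kept in 2% serum. In both KO clones 1013 genes (6.95%) were called higher than WT and 836 (5.73%) lower, with median log2 changes of 2.78 and -2.40. In the PRRX1 line the median difference of the KO-higher genes was -0.013, and 18 (1.78%) were higher and 56 (5.53%) lower at an unadjusted p under 0.05, beside 1.67% and 3% of all genes. Of the KO-lower genes, 10 (1.2%) were higher and 18 (2.15%) lower, with a median of -0.032. PRRX1 was the only gene called in both comparisons. It is the gene of the vector, and the study took it up as a factor raised upon SETD2 loss. This overlap was thus set by the design and tells nothing of a shared response. Of the 522 genes (3.58%) called higher with TGF-β, 14 (2.68%) were higher and 23 (4.41%) lower in the PRRX1 line at an unadjusted p under 0.05, with a median of 0. The 621 genes (4.26%) called lower with TGF-β had a median of -0.069, with 11 higher (1.77%) and 29 lower (4.67%). In all, 0 genes were called in both the PRRX1 and the TGF-β comparison by limma. PRRX1, the only gene called in the line, was at 0 in WT with and without TGF-β, so this count is not informative either.

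Several genes that rose strongly with SETD2 loss show the contrast in size, which was not the same for all. GDF15 rose by 6.67 in KO1 and 4.42 in KO2 (log2), and its difference in the PRRX1 line was -0.41. THBS2 rose by 5.16 and 5.67 in the clones, beside 0.81 in the PRRX1 line. CSF3 rose by 9.78 and 6.86, beside -1.19, and ZEB2 by 2.65 and 2.80, beside 0.13. SPSB1 and ENG differed upward in both comparisons. SPSB1 rose by 6.55 and 6.80, beside 2.51 in the PRRX1 line (adjusted p 0.609 by limma). Its libraries there, at 17.1 and 51.1, overlapped the OCT2 line at 46.9 and 83.2. ENG rose by 4.23 and 3.40, beside 0.86 (adjusted p 0.964). The PRRX1 differences are from the other transduced lines, which stood above untransduced WT in GDF15, THBS2, CSF3 and ZEB2. GDF15 had a mean of 424 in WT, 4375 in the other transduced libraries and 3323 in the PRRX1 line. For THBS2 these means were 7.58, 34.7 and 56.7, and for CSF3 0, 56.3 and 23.7. ZEB2 stood at 324 in WT and at 1782 and 1863 in the PRRX1 line, but it was also at 1562 to 1886 in the other transduced lines. The level of ZEB2 in all 4 transduced lines was thus close to the 2037 of KO1, and the transduced lines and WT differ in serum as well as in vector and selection, which cannot be told apart.

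**Figure D5:**
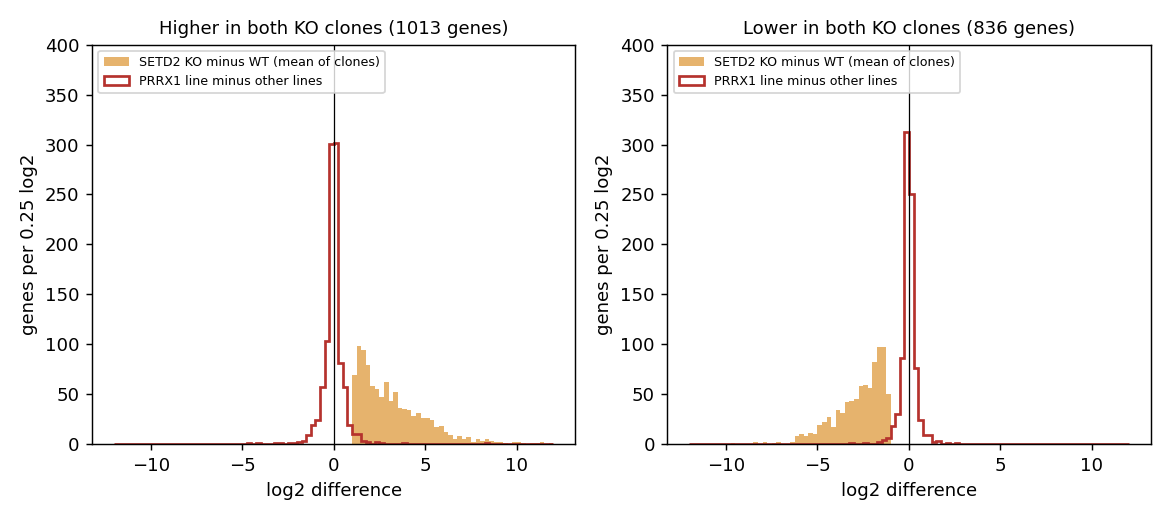
Log2 differences of the 1013 genes called higher (left) and the 836 called lower (right) in both SETD2 KO clones, as the mean of the clones against WT (orange, filled) and in the PRRX1 line against the 3 other lines (red outline), in bins of 0.25. The orange values lie beyond 1 by the choice of genes, and the red values centre near 0.

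Promoters were searched for the letters TAATTA and CAATTA on both strands, which are AT-rich cores of the kind that PRRX1 and many other homeodomain factors bind. The window ran from 250 bases before to 50 bases after each start site in RefSeq sequences of GRCh38.p14, and a gene with several or overlapping matches counted once. TAATTA reads the same on both strands, and CAATTA was also searched as TAATTG. Of 10430 tested genes with a sequence in this set, 971 (9.31%) held either motif, and of all 27305 genes with one, 3723 (13.6%) did. The share was 19 of 177 (10.7%) for genes higher in the PRRX1 line at an unadjusted p under 0.05 and 38 of 321 (11.8%) for genes lower. The window of PRRX1 itself held neither motif. Of the 31 named genes 20 had a promoter sequence, and only that of ZEB2 held a match, so it is shown in full with the match in capitals, at chr2:144520070-144520369, minus strand.
ZEB2: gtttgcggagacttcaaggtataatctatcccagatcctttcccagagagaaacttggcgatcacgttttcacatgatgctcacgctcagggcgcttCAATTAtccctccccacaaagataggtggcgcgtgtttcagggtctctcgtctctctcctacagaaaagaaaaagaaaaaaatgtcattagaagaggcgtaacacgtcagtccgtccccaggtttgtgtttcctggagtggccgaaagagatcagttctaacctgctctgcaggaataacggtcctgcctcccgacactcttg
The match begins 153 bases before the start site, and ZEB2 is the gene whose interval in the PRRX1 line was -0.08 to 0.34.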

How the data were processed

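RNA-seq of WT RPTEC transduced with PRRX1, eGFP, OCT2 or SOX2 was taken from a table of 22 libraries. Per the labels and the study's methods, stranded mRNA libraries were quantified with Salmon 1.9.0 and analysed with DESeq2 1.26.0 on hg38. The authors deposited log2 values for 36859 genes whose transformation is not named. They were read as variance-stabilized because all 22 libraries share the lowest value of 11.32, and were inverted to normalized counts. Reads were approximated from the step between low values, so read depths are rough, and depth limits genes with few reads.

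One limma 3.58.1 fit (R 4.3.3, variance trend on expression) on log2(normalized count + 1) with 11 group means tested 14585 genes, each reaching 10 normalized counts in 2 or more libraries. P-values were adjusted by Benjamini-Hochberg over all of them. Calls needed an adjusted p below 0.05 and a log2 difference beyond 1 in size. The fit was tested on simulated data. The rule for named genes took PRRX1, POU2F2 and SOX2 (not analysed here), genes called in counts of 5 or fewer, and the member of each list with the smallest unadjusted p. Some of these are not reported here. Members and lists were chosen with earlier results of these data known. Replicate numbers did not pair the libraries (correlations of -0.316 to 0.0493 between lines). Symbols and positions came from GENCODE 44. Alternatives changed the pseudocount, filter, scaling, test scale, libraries, variance model and block.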

Additional observations from a re-analysis of the deposited data

How the results depend on the processing

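The count of 1 gene against the mean of the 3 lines held with pseudocounts of 0.5 and 5, quantile normalization, equal totals, a robust variance estimate (chosen after seeing the data), the replicate block, and each comparison line dropped in turn. Without a low-value filter the counts were 8 against the mean, 18 against eGFP, 4 against OCT2, 7 against SOX2 and 7 set apart, which means called, outside the range of the 6 libraries and changed by over 1 from each line. With a mean of at least 50 normalized counts they were 0, 3, 0, 0 and 0, since PRRX1 itself does not pass that filter, and 0 genes were shared with the KO calls. On the deposited log2 values they were 0 throughout, with 0 shared with the KO calls, because PRRX1 then changed by 0.56 (adjusted p 9.2e-10). With only the 8 transduced libraries they were 6, 3 and 6 against the mean, eGFP and OCT2, with 5 set apart. With a robust variance added (chosen after seeing the data) they were 2, 0 and 4, with 2 set apart, and with the filter on these 8 libraries (also chosen later) 0, 0, 5 and, against SOX2, 1, with 0 set apart. Without the variance trend 3 were called and 2 set apart. By unadjusted p they were 282, 387, 311 and 308, with 91 set apart, 17 shared with KO and 22 with TGF-β.

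The replicate numbers are only shared names here. The replicate block changed 1 count, against SOX2, to 1, and no other call. Leaving out each library gave 1 to 9 genes against the mean, 6 to 41 against eGFP, 1 to 7 against OCT2, 1 to 6 against SOX2 and 1 to 9 set apart, where a lone duplicate was assumed to vary like the other groups. MCM2 went from -3.01 to -6.03 without PRRX1 replicate 1 and to 0.0078 without replicate 2. Depth limits the low genes, and the causes of the other shifts were not tested.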
